A study of Mus musculus with 116 samples.

Results

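The genes Crip1, Crip2, Csrp1 and Csrp2 encode the small cysteine-rich LIM proteins, and they were followed through every group of mouse libraries in a nanoSPLITS study, 4 genes out of 40202 in the count files. nanoSPLITS holds the lysate of 1 or a few cells in a nanodroplet and splits the droplet so that RNA and protein can be read from separate portions. C10 is a mouse line labelled as alveolar type II epithelium and SVEC a mouse line labelled as endothelium, and both were untreated and grown under standard culture. The groups were C10 1-cell input libraries (n = 8), C10 3-cell input libraries (n = 6), C10 10-cell input libraries (n = 6), C10 single cells (n = 48, of which 46 were used) and SVEC single cells (n = 48). The genes were chosen by their measured values: Crip1 had counts in every C10 single cell used and in no SVEC cell, and the other members are its relatives. Differences of the members between the lines are therefore given as a description, with no test.

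A LIM domain is a small fold in which cysteine and histidine side chains hold a pair of zinc ions, and it serves as a surface for binding other proteins. Crip1, the cysteine-rich intestinal protein, consists of little more than a single LIM domain and is known for its abundance in the gut. Crip2, Csrp1 and Csrp2 each carry a pair of LIM domains. Csrp1 and Csrp2 bind alpha-actinin and zyxin on actin filaments, can enter the nucleus as partners of the transcription factors SRF and GATA, and are best known from smooth muscle and other mesenchymal cells. Crip2 is known from the heart and from blood vessels.

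The coding sequences are shown because the family is defined by its spaced cysteines and because reads of related genes must be told apart. They come from GENCODE M21 transcripts (GRCm38), 5′ to 3′, with the cysteine codons TGT and TGC in capitals. The Crip1 sequence is the whole coding sequence of 77 codons, and the others are the first 78 codons.
Crip1: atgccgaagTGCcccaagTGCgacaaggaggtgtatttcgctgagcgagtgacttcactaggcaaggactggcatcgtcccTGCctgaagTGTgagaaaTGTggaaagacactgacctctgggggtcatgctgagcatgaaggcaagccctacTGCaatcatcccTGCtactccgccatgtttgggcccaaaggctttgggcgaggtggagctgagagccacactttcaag
Crip2: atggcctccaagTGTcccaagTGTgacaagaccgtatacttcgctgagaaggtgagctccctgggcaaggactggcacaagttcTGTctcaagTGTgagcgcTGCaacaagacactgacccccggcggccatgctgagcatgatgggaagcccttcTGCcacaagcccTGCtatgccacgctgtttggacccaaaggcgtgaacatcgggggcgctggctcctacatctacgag
Csrp1: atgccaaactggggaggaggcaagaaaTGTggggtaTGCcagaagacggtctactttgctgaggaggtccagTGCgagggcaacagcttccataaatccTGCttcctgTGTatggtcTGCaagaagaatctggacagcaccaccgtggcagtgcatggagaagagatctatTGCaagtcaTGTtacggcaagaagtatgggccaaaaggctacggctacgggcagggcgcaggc
Csrp2: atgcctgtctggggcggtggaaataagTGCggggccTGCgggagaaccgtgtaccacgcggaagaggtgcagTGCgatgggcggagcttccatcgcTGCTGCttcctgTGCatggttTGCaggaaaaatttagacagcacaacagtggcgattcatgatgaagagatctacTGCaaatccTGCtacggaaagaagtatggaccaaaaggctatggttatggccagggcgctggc
Cysteine codons came in closely spaced pairs, such as the first pair of Crip1, which has 2 other codons between its members in every sequence shown. Crip1 had 7 cysteine codons in all, Crip2 had 14 of 208 codons, Csrp1 15 of 193 and Csrp2 16 of 193. Crip1 and Crip2 were identical at 70.9% of 227 aligned coding bases, and Csrp1 and Csrp2 at 74.4% of 577. The longest run of identical bases between any 2 members' transcripts was 15, against reads of 150 bases, and no member overlapped another gene of the RefSeq annotation.

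Crip1 and Crip2 lie on chromosome 12 in the same direction, with the predicted gene Gm30599 between them, while Csrp1 lies on chromosome 1 and Csrp2 on chromosome 10. The bases before the starts of Crip1 and Crip2 are shown because these neighbours differed in their counts between the lines. They are taken from RefSeq (GRCm38.p6), + strand, at chr12:113151762-113152011 for Crip1 and chr12:113139986-113140235 for Crip2. GC boxes, searched as GGGCGG on both strands (CCGCCC on the opposite strand), are in capitals.
Crip1: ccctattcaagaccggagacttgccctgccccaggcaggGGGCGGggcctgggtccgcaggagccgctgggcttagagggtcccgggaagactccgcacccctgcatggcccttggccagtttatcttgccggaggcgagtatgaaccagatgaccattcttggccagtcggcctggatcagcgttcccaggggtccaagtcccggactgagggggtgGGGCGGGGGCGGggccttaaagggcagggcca
Crip2: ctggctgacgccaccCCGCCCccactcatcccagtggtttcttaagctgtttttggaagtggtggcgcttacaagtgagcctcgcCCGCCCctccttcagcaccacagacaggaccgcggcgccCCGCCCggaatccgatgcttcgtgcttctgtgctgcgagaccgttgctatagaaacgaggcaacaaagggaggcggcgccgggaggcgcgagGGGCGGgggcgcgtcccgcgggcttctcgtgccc
The Crip1 window held 3 GC boxes and 13 CpG dinucleotides, and the Crip2 window held 4 GC boxes and 26 CpG dinucleotides. RefSeq lists another Crip2 start downstream, whose window at chr12:113140355-113140604 reaches into the coding sequence and is not printed; it held 5 GC boxes and 30 CpG dinucleotides. Among 32851 windows of 250 bases before gene starts, 32.7% held at least 1 GC box and the median number of CpG dinucleotides was 6. A match of these letters is a description of the window and was not tied to any measurement of binding.

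Read depth differed between the groups. The median library held 10157062 counts in the 1-cell input, 11042629 in the 3-cell input and 11425140 in the 10-cell input. Single-cell libraries were shallower, with a median of 1881704 counts for C10 (83188 to 5911755) and 434945 for SVEC (5122 to 2831907). Replicate 1 of the 1-cell input stood apart from its group with 430798 counts, 538 genes and 64.6% of its counts on mitochondrial genes. The labelled cell types were set against defining markers in the single cells: Sftpa1, Sftpb, Sftpc, Sftpd and Nkx2-1, surfactant genes and their regulator, were at 0 in all 46 C10 cells, and Kdr, Tie1, Vwf, Emcn, Cldn5 and Sox17, endothelial genes, were at 0 in all 48 SVEC cells. Of the 14 alveolar epithelial markers listed 7 were at 0 in C10, and of the 12 endothelial markers 6 were at 0 in SVEC, so the lines are called here by their names. Other markers of these lists went both with and against the labels. Cdh1, the epithelial cadherin, had counts in 24 of 46 C10 and 1 of 48 SVEC cells (0.675 and 0.034 CPM of the sums). Flt1, a VEGF receptor gene named after its values were seen, stood at 27.5 CPM in SVEC against 0.594 CPM in C10. Its counts, however, were found in 8 of 48 SVEC cells and 13 of 46 C10 cells. The endothelial markers Tek (0.564 against 0.103 CPM) and Eng (2.42 against 0.620 CPM) were higher in C10. Ager, an alveolar marker, had counts in 1 SVEC cell and in no C10 cell. Fibroblast markers were present in both, with a summed level of 475.6 to 15368 CPM in C10 cells and 0 to 11331 CPM in SVEC cells, and their part in the results was not tested. CPM is the count of a gene per 1000000 counts of its library.

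Crip1 separated the lines completely among the cells used. All 46 C10 single cells had Crip1 counts, at 94.99 CPM in the lowest, 1011 CPM in the median and 5668 CPM in the highest cell. All 48 SVEC cells were at 0. The 2 lines therefore did not overlap, and the 46 C10 cells spread over a wide range, with a mean of 1411 ± 1124 CPM (SD, n = 46). Depth matters for the zeros: 3 counts, the least taken as detectable, stood for a median of 6.95 CPM in an SVEC library and fell below the lowest C10 value in 45 of 48 SVEC libraries. In the other 3, up to 586 CPM, an SVEC cell with as little Crip1 as the lowest C10 cell could have gone unseen.

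Summed over cells, Crip1 stood at 1192 CPM in C10 (exact 95% Poisson interval 1185 to 1198), and against a floor of 3 counts over the whole SVEC group this was at least 11526-fold higher. The interval covers counting error only, since reads copied by PCR could not be told from separate molecules. Each library was 1 cell and the labels name no separate cultures, so each line counts as 1 sample and no test was made between lines. The share of SVEC cells with Crip1 was 0 of 48, which allows a share of cells with counts of up to 6.25% (3 of 48 cells), or 7.40% by the exact binomial interval. Per kilobase of transcript, Crip1 stood at 2309 CPM per kilobase in the C10 single cells. That was rank 14 of 13202 genes with counts and a protein-coding transcript.

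**Figure D1:**
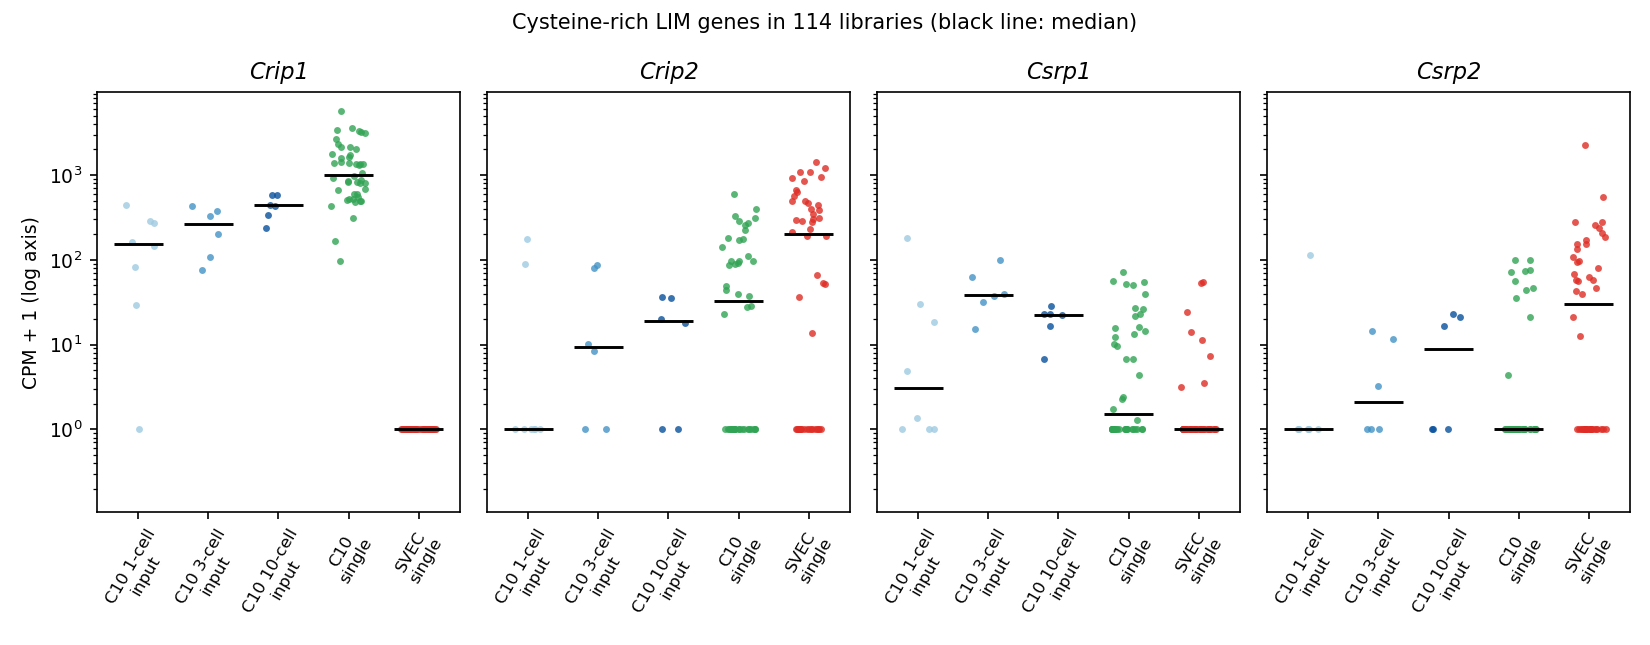
Counts per 1000000 plus 1 (log axis) of the 4 cysteine-rich LIM genes in 114 libraries. Each point is a library and each black line a group median. Crip1 lies between 94.99 and 5668 CPM in the C10 single cells and at 0 in every SVEC cell, and the other members are at 0 in many cells of both lines.

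Crip2, its neighbour and closest relative in the set, had counts in both lines, with the higher level in SVEC. Among C10 single cells its values ran from 0 through a median of 32.0 CPM to 594.7 CPM, with a mean of 92.0 ± 131 CPM (SD, n = 46). Among SVEC cells they ran from 0 through a median of 200.9 CPM to 1416 CPM, with a mean of 310.4 ± 378 CPM (SD, n = 48). The ranges overlapped, and both lines held cells with and without counts. Summed over cells, Crip2 had 104.7 CPM in C10 against 359.5 CPM in SVEC, a 3.43-fold higher level in SVEC (exact 95% interval of the ratio 3.34 to 3.53, counting error only).

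The shares of cells with Crip2 were close together while the levels differed. Counts were present in 26 of 46 C10 cells, or 56.5% (exact binomial interval 41.1% to 71.1%), and in 31 of 48 SVEC cells, or 64.6% (49.5% to 77.8%). These intervals cover the sampling of cells within 1 sample of each line and are no test between the lines. No cell of either line had only 1 or 2 Crip2 counts. The lowest level in a cell with counts was 21.8 CPM in C10 and 12.8 CPM in SVEC, and the median over cells with counts was 102.9 CPM in C10 and 381.7 CPM in SVEC. A C10 cell with 5124498 counts in total had no Crip2 count, and so did an SVEC cell with 1596561 counts. Crip2 thus showed either as 0 or as 3 counts and more.

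Csrp1, the actin-linked member expressed in many mesenchymal cells, stood low in both lines. Its C10 values ran from 0 through a median of 0.50 CPM to 70.3 CPM, with a mean of 11.2 ± 18.3 CPM (SD, n = 46), and 24 of 46 cells had counts (52.2%, exact interval 37.0% to 67.1%). Its SVEC values ran from 0 through a median of 0 to 53.3 CPM, with a mean of 3.40 ± 11.2 CPM (SD, n = 48), and 8 of 48 cells had counts (16.7%, 7.48% to 30.2%). In 3 of the C10 cells and 3 of the SVEC cells the count was only 1 or 2. The sums gave 12.0 CPM in C10 against 7.51 CPM in SVEC, 1.60-fold higher in C10 (1.38 to 1.86). That ratio rested on 1 SVEC cell, replicate 19, which gave 69.3% of all SVEC counts of Csrp1, and without it the ratio was 4.69-fold.

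Csrp2, known as the smooth muscle LIM protein, had its higher level in SVEC. Among C10 cells it ran from 0 through a median of 0 to 99.6 CPM, with a mean of 13.4 ± 28.1 CPM (SD, n = 46), and 11 of 46 cells had counts (23.9%, exact interval 12.6% to 38.8%). Among SVEC cells it ran from 0 through a median of 29.2 CPM to 2276 CPM, with a mean of 119.0 ± 336 CPM (SD, n = 48), and 26 of 48 cells had counts (54.2%, 39.2% to 68.6%). The lines overlapped at 0 and up to the highest C10 value. From the sums, 18.1 CPM in C10 against 70.1 CPM in SVEC, the level was 3.88-fold higher in SVEC (3.64 to 4.14). The highest SVEC value, replicate 20, came from a library of 6591 counts in total. Taking the mean of the cells' CPM in place of the sums put Csrp2 at 0.1125 of the SVEC level in C10, past a 4-fold difference.

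Taking a 4-fold difference of the sums as the call, 7.4% of the 9303 genes compared were called higher in C10 and 6.08% lower in C10, around a median fold of 0.998. Of the members, Crip1 was past 4-fold higher in C10, and Crip2, Csrp1 and Csrp2 were within 4-fold. Csrp2 lay so near the threshold that leaving out 1 of 12 cells put it past 4-fold, namely C10 replicates 2, 14, 18, 31, 43 and 44 and SVEC replicates 17, 19, 25, 34, 37 and 41, with 3.28-fold to 5.12-fold over all cells left out in turn. Csrp1 was past 4-fold, at 4.69-fold, without SVEC replicate 19. Since the genes were selected on this contrast, nothing is read from that count.

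Thinning every cell to 100000 counts, which left out 1 C10 cell and 6 SVEC cells, set the shares at a common depth. Crip1 had counts in 45 of 45 C10 cells and in 0 of 42 SVEC cells. Crip2 had counts in 25 C10 cells (55.6%) and 27 SVEC cells (64.3%). Csrp1 moved most, to 16 C10 cells (35.6%, exact interval 21.9% to 51.2%) against 6 SVEC cells (14.3%, 5.43% to 28.5%). Csrp2 had counts in 8 C10 cells (17.8%) and 24 SVEC cells (57.1%). At the common depth the lines kept their order for Crip2, Csrp1 and Csrp2. Thinning could not have reversed Crip1, which had no SVEC count to begin with.

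**Figure D2:**
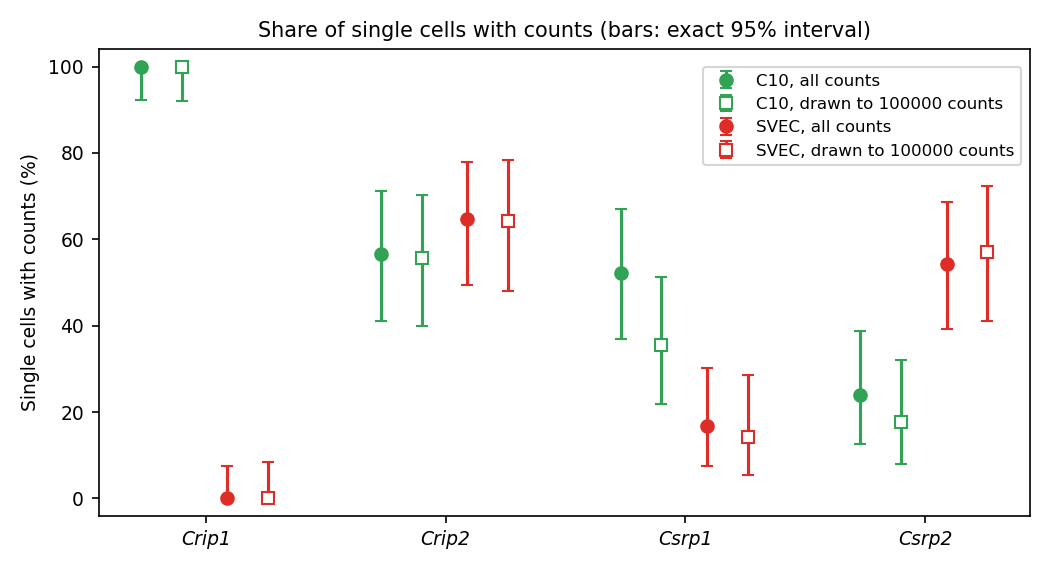
Percent of single cells with counts of each gene in C10 and SVEC, from all counts (filled circles) and after drawing each cell to 100000 counts (open squares), with exact 95% binomial intervals that cover the sampling of cells. The shares of Crip2 lie close together (56.5% and 64.6%), and Csrp2 is found in more of the SVEC cells (54.2% against 23.9%).

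Levels of different members are compared per kilobase of transcript. In C10 single cells the summed levels were 2309 CPM per kilobase for Crip1, 72.8 for Crip2, 13.1 for Csrp2 and 6.57 for Csrp1. In SVEC cells they were 249.8 CPM per kilobase for Crip2, 50.7 for Csrp2 and 4.11 for Csrp1, with Crip1 at 0. Crip2 was there at rank 455 of 12636 genes with counts and a protein-coding transcript. The spread of Crip2 and Csrp2 over SVEC cells was wide, and the sums are given without an order. In C10 cells, Csrp1 and Csrp2 had means of 6.13 and 9.67 CPM per kilobase, a difference smaller than the spread of either over cells, and they are not ordered here. The muscle member Csrp3 had no count in any single cell of either line, and Crip3 had counts in 1 SVEC cell only, at 5 counts.

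Cells of a line differed in which members they showed. In C10, 7 of 46 cells had counts of Crip1 alone, 21 had counts of 2 members, 14 of 3 and 4 of all 4 members. The 4 cells with all members were deep, with a median total of 3839107 counts. Crip2 and Csrp1 were both present in 13 cells, Crip2 alone of this pair in 13, Csrp1 alone in 11, and neither in 9. In SVEC, 7 of 48 cells had none of the 4 genes, 22 had 1, 14 had 2 and 5 had 3. Crip2 and Csrp2 were both present in 17 SVEC cells, Crip2 alone of this pair in 14, Csrp2 alone in 9, and neither in 8.

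Rank correlations of CPM are given as a description, since the values share library depth. Crip1 and Crip2 had a Spearman rho of 0.299 over 46 C10 cells and of 0.260 over the 20 input libraries. Crip2 and Csrp2 had a rho of -0.171 over 48 SVEC cells, of 0.044 over the C10 cells and of 0.601 over the input libraries, where many values of both are 0. Total counts also moved with the members, with a rho of -0.296 between Crip1 and total counts in C10 cells and of 0.288 for Csrp1. The part of depth in these values was not tested.

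**Figure D3:**
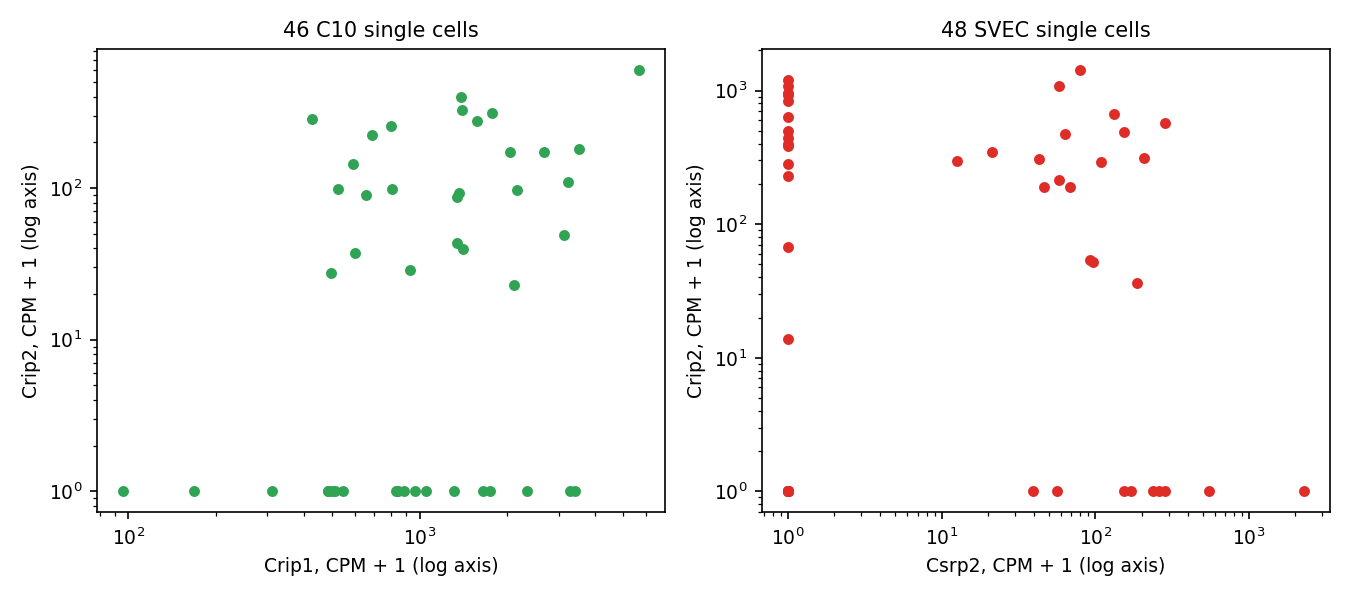
Crip1 against Crip2 in 46 C10 single cells and Csrp2 against Crip2 in 48 SVEC single cells, each as CPM plus 1 on log axes, 1 point a cell. Crip2 is at 0 in 20 C10 cells over nearly the whole range of Crip1, and 14 SVEC cells have Crip2 alone while 9 have Csrp2 alone.

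The genes most like each member were taken as the 3 with the highest Spearman rho among those with counts in at least 50% of the cells of a line, 5769 genes in C10 and 3060 in SVEC. For Crip1 in C10 these were Cyb5a, the electron carrier cytochrome b5 (rho 0.597), Cox14, a cytochrome oxidase assembly factor (0.532), and Hsbp1, which binds heat shock factor (0.524). In the input libraries, the rho with Crip1 was 0.534 for Cyb5a, 0.514 for Cox14 and 0.248 for Hsbp1. For Crip2 in C10 they included Metap1, a methionine aminopeptidase (0.537), and Spin1 (0.505). For Csrp1 in C10 they were Cfl1, the actin-severing protein cofilin (0.651), Bysl, a ribosome assembly factor (0.645), and Lipc, hepatic lipase (0.558). Cfl1 had a rho of 0.511 with Csrp1 in the input libraries and of 0.070 in SVEC cells.

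In SVEC cells, the genes most like Crip2 were Mrpl43, a mitochondrial ribosomal protein gene (rho 0.601), Dcn, which encodes the matrix proteoglycan decorin (0.596), and Eno1, a glycolytic enzyme gene (0.587). Those most like Csrp2 were Nlgn1 (0.504), Tceal9 (0.481) and Ndrg1 (0.450). In the other line, Metap1 had a rho of 0.038 with Crip2 (SVEC) and Eno1 had -0.137 (C10), and no difference between the lines is read from this. These values are the top of a long ranking and are no evidence of a relation on their own, and 95% of the genes compared had a rho with Crip1 under 0.257.

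Genes beside Crip1 and Crip2 on the chromosome did not share the pattern of Crip1. Gm30599, between them, had no count in either line. Tedc1, on the far side of Crip1, had counts in 9 of 46 C10 cells and 9 of 48 SVEC cells, at 12.5 and 21.3 CPM of the sums. Mta1, a chromatin remodelling subunit gene before Crip2, had counts in 23 C10 cells and 11 SVEC cells, at 13.8 and 8.55 CPM. Phlda3, next to Csrp1, was at 32.9 CPM in C10 cells against 8.13 in SVEC cells, and Zdhhc17, next to Csrp2, at 6.28 against 31.5 CPM.

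Counts of other LIM genes past 4-fold between the lines are read against the 7.4% of all genes higher and 6.08% lower in C10. Of the 14 listed LIM-only and cysteine-rich relatives, 6 were measured well enough to compare, and 1 was past 4-fold higher in C10 and 1 lower, with a median log2 fold of 0.10 beside -0.0028 over all genes. Of the 11 genes of the zyxin and paxillin family, 9 were compared and 2 were past 4-fold higher in C10, with a median of 0.14. Zyx, the focal adhesion protein zyxin to which Csrp1 and Csrp2 bind, reached 354.6 CPM in C10 against 48.97 CPM in SVEC, a 7.24-fold higher level, with counts in 45 of 46 and 28 of 48 cells. None of the 4 PDZ-LIM genes compared was past 4-fold, with a median of -0.31. Of the 6 other actin-linked LIM genes compared, 2 were past 4-fold higher in C10 and 1 lower, with a median of 1.13.

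Among the higher actin-linked genes was Limk2, a kinase that phosphorylates cofilin, at 9.06-fold with counts in 43 C10 and 15 SVEC cells. Among 11 partners of the CRP proteins and SRF target genes compared, none was past 4-fold higher in C10 and 1 was lower, Gata4, a transcription factor known to bind CRP proteins, with 7.40 CPM in C10 against 36.8 CPM in SVEC. The median of that list was -0.57. The genes Tagln, Cnn1 and Myl9, contractile genes of smooth muscle, were each found in at most 1 cell of a line, while Acta2, smooth muscle actin, had counts in 45 C10 and 33 SVEC cells. Other genes past 4-fold were named with Gata4 after their values were seen. These genes were Fhl3 (2.32 CPM in C10, 0.448 in SVEC), Lmo7 (2.36 and 26.9 CPM), Lpxn (0.876 and 0.103 CPM) and Ablim1 (9.84 and 44.7 CPM). Counts were present in 21 C10 and 4 SVEC cells for Fhl3, 13 and 3 for Lpxn, and 18 and 16 for Ablim1. Lmo7 had counts in 16 C10 cells and 6 SVEC cells, fewer in the line with its higher level. Lpxn stood at the floor of 3 counts in SVEC. The lists were compared by counts and medians alone.

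**Figure D4:**
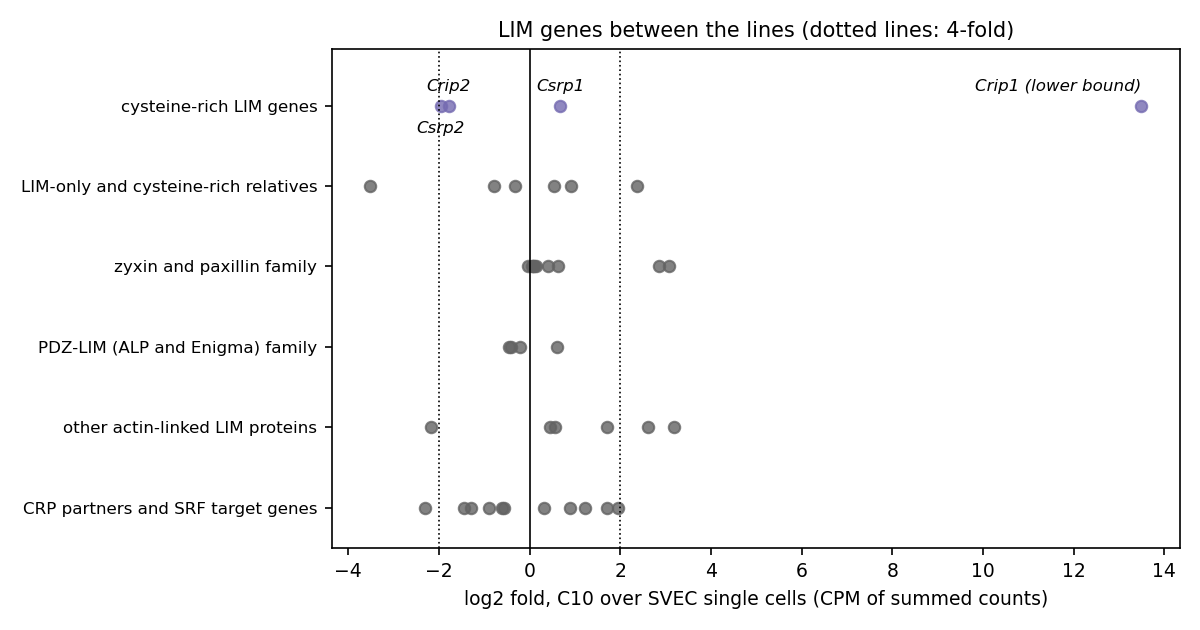
Log2 fold of C10 over SVEC single cells, from CPM of summed counts, for the 4 cysteine-rich LIM genes and for the LIM and partner genes compared in each list. Each point is a gene and the dotted lines mark 4-fold. Crip1 is a lower bound, and Crip2 and Csrp2 lie just inside the line on the SVEC side.

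The input series asks how the genes were measured as fewer cells went into a library. Crip1 was at 0 in 1 of 8 1-cell libraries, the shallow replicate 1, and at most 436.8 CPM, with a median of 154.4 CPM. In 3-cell libraries it ran from 74.7 through 263.1 to 431.4 CPM, and in 10-cell libraries from 235.0 through 439.7 to 577.8 CPM. The means were 176.1 ± 147 CPM (SD, n = 8), 252.9 ± 148 CPM (SD, n = 6) and 435.1 ± 134 CPM (SD, n = 6). The SD itself changed little, while relative to the rising mean it fell, at 0.834, 0.584 and 0.308 of the mean. The 1-cell values include the shallow replicate 1. The groups overlapped.

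Crip2, Csrp1 and Csrp2 were missing from many input libraries. Crip2 had counts in 2 of 8 1-cell libraries (88.4 and 174.3 CPM), in 4 of 6 3-cell libraries (up to 86.7 CPM) and in 4 of 6 10-cell libraries (16.9 to 35.1 CPM). A 10-cell library with 13517538 counts still had no Crip2 count, although 26 of 46 C10 single cells had one. Csrp1 had counts in 5 of 8 1-cell libraries, with 180.4 CPM in replicate 2 and at most 29.4 CPM in the others. It had counts in all 6 3-cell libraries (14.2 to 97.4 CPM) and all 6 10-cell libraries (5.77 to 27.7 CPM). Csrp2 had counts in 1 of 8 1-cell libraries, replicate 10 at 113.1 CPM, in 3 of 6 3-cell libraries (up to 13.4 CPM) and in 3 of 6 10-cell libraries (up to 22.1 CPM).

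No member passed the test between input groups, made with edgeR's quasi-likelihood test and Benjamini-Hochberg adjustment over 13645 genes. These p-values measure the spread between libraries, which may be technical, because the labels name no separate cultures. From 1 to 10 cells the log2 fold change was 0.98 for Crip1 (SE 0.884, adjusted p = 0.797), -0.96 for Crip2 (SE 2.19, adjusted p = 0.995), -0.95 for Csrp1 (SE 1.58, adjusted p = 0.985) and -0.44 for Csrp2 (SE 2.28, adjusted p = 0.999). The test called 10.6% of genes higher and 0.0879% lower in the 10-cell group, with a median log2 fold change of 0.36 over all genes. Scaled by DESeq2's size factors, that median was -0.50 and the value of Crip1 was -0.14, so its direction depended on the scaling. From 1 to 3 cells it called 6.07% higher and 0.278% lower, and the members had log2 fold changes of 0.33, 0.02, 0.46 and -1.51 for Crip1, Crip2, Csrp1 and Csrp2, with edgeR adjusted p of 0.97 or 1. Between 3 and 10 cells it called 0% in either direction, with 1346 genes at an unadjusted p under 0.05, and DESeq2 called 258 genes and limma 35. The members' log2 fold changes from 3 to 10 cells were 0.64, -0.98, -1.42 and 1.07, with edgeR adjusted p of 1.

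The Csrp2 value rested on 1 library. Without replicate 10 of the 1-cell input, the other 7 1-cell libraries were all at 0, so Csrp2 could only be higher in the pools. The edgeR adjusted p for Csrp2 was then 0.0209 for 10 cells and 0.034 for 3 cells against 1 cell. Csrp2 had counts in 3 of 6 libraries of each pool group. Nothing is concluded from these p-values, since leaving out that library fixed the direction. Without replicate 2 of the 1-cell input, the log2 fold change of Csrp1 from 1 to 10 cells was 1.24 with an adjusted p of 0.879. The counts of genes called also moved with single libraries: 1456 genes were called between 1 and 10 cells, 336 without replicate 1 and 2769 without replicate 10 of the 1-cell input. Between 1 and 3 cells 866 genes were called, against 32 without replicate 1, 223 without replicate 2, 39 without replicate 5, 32 without replicate 9, 2035 without replicate 10, 141 without replicate 13 and 55 without replicate 14 of the 1-cell input.

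LIM relatives were read from the same test, which called 10.6% of all genes higher in the 10-cell and 6.07% higher in the 3-cell than in the 1-cell input. In the 10-cell against the 1-cell input, 1 of 7 LIM-only relatives tested was higher, Lims2, an integrin-linked kinase partner, at 3.00 ± 3.89 CPM (SD, n = 6) in the pools and 0 in all 8 1-cell libraries (edgeR adjusted p = 0.0475). In the same comparison 1 of 10 zyxin and paxillin genes was higher, Wtip (edgeR adjusted p = 0.0321). Its mean was 1.80 ± 4.22 CPM (SD, n = 6) against 0.031 ± 0.057 CPM (SD, n = 8). Lims2 and Wtip each had counts in only 3 of the 6 10-cell libraries. Wtip reached 10.4 CPM in a 10-cell library around a group median of 0.060 CPM. In the 3-cell against the 1-cell input, Lims2 (edgeR adjusted p = 0.0414), the paxillin relative Lpxn (adjusted p = 0.0414) and the calponin gene Cnn1 (adjusted p = 0.0478) were higher. Cnn1 had counts in 3 of 6 3-cell libraries, up to 33.2 CPM, and in none of the 1-cell or 10-cell libraries. Lpxn reached 38.1 CPM in a 3-cell library around a median of 0.25 CPM. Lims2 had counts in only 2 of 6 3-cell libraries, up to 34.2 CPM.

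These calls were near the threshold. With DESeq2's size factors in edgeR the adjusted p was 0.0915 for Lims2 and 0.107 for Wtip (10 cells against 1 cell), and 0.0562 for Lims2, 0.0616 for Lpxn and 0.0627 for Cnn1 (3 cells against 1 cell). The same 5 calls were lost with limma (adjusted p of 0.233 to 0.45) and with no filter on low counts (edgeR adjusted p of 0.0578 to 0.0673). They were also lost with the replicate block (edgeR adjusted p of 0.119 to 0.607), a fit that left out 1-cell replicates 13 and 14. DESeq2 called Lims2 (adjusted p = 1.06e-09 for 10 cells, 4.35e-12 for 3 cells) and Lpxn (adjusted p = 0.00243). Its log2 fold change for Lims2 at 10 cells was 20.08. As Lims2 was at 0 in all 8 1-cell libraries, that size has no measured base and the small adjusted p is not read as stronger support. For 10 cells against 1 cell, Lims2 lost its call without any 1 of the 1-cell replicates 1, 2, 5, 6, 9, 13 and 14 (edgeR adjusted p of 0.0526 to 0.0839), and Wtip without any 1 of replicates 1, 2, 13 and 14 (0.0529 to 0.0632). For 3 cells against 1 cell, Lims2 (0.0573 to 0.0806), Lpxn (0.0584 to 0.0831) and Cnn1 (0.062 to 0.095) lost it without any 1 of the 1-cell replicates 1, 2, 5, 9, 13 and 14, and Lpxn also without 3-cell replicate 2. No gene of the PDZ-LIM list (5 tested) or the list of other actin-linked LIM genes (9 tested) passed in any of the 3 comparisons. Among the markers of cell types, Epcam and Krt19 of 6 alveolar epithelial genes tested and Lyz2 of 2 immune genes tested were higher in the 10-cell than the 1-cell input (edgeR adjusted p of 0.0265, 0.0407 and 0.0368), and their part in the values of the members was not tested.

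C10 single cells and C10 1-cell input libraries each hold 1 cell of the same line, yet Crip1 stood at different levels in them. Crip1 was at 1192 CPM of the sums in the single cells and 197 CPM in the 1-cell input, 6.05-fold higher (exact 95% interval of the ratio 5.95 to 6.15, counting error only). Crip2 was at 104.7 and 41.8 CPM, 2.51-fold higher in the single cells (2.41 to 2.61). Only 2 of the 8 input libraries had Crip2, and without replicate 10, which held 62.8% of the input counts, the ratio was 5.72-fold. Csrp1 was at 12.0 and 43.2 CPM, 3.60-fold lower in the single cells (3.37 to 3.84), but 80.9% of its 1-cell input counts came from replicate 2, and without that library the input stood at 10.2 CPM and the single cells 1.18-fold higher, so the direction rested on it. Csrp2 was under 25% of libraries with counts in both groups and was not compared. Past 4-fold, 16.5% of 12303 genes were higher and 11.6% lower in the single cells, with a median fold of 1.04, and of the 3 members compared Crip1 was past it, at 5.25-fold to 6.98-fold whichever library was left out. Crip2 was past it without 1-cell input replicate 10, and Csrp1 was past it on the lower side without single cell replicate 36 (4.06-fold lower) or 1-cell input replicate 9 (4.02-fold) or 13 (4.34-fold). The 2 sets also differed in depth, and set and group cannot be told apart.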

How the data were processed

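Full-length cDNA was made with SMART-Seq v4 Plus and sequenced as single reads of 150 bases, per the labels' protocols. The authors deposited 1 table of whole-number read counts per library, 116 in all. The submitters' processing notes name FastQC, STAR and HTSeq; versions, genome build and strand setting are not given in the sources used here. No molecular identifiers are described. The 5 closing counters were left out of totals, as were 2 C10 single-cell libraries with under 1000 counts. CPM, folds of summed counts (genes with counts in 25% or more of a group's libraries), exact intervals and Spearman rho were computed in Python 3.11.15 with scipy 1.17.1. Kilobases are those of the longest protein-coding GENCODE M21 transcript, so ranks per kilobase leave out genes without one. The input series was fitted with edgeR 4.0.16 (TMM, genes with counts in 50% or more of a group's libraries, adjusted p under 0.05). The alternatives were limma 3.58.1 and DESeq2 1.42.0. The edgeR fit was also run on simulated counts. Their changes were far larger than those measured for the members, so that run does not speak to small changes. No 2 libraries of a group agreed within sampling noise. Named genes were the members, list genes past 4-fold with counts in at least 50% of the higher line or past the test, the 3 genes most like each member and the nearest genes. Some genes that met this rule are not reported here. Members and lists were chosen with earlier results of these data known.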

Additional observations from a re-analysis of the deposited data

Results flagged for a closer look

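Among the 12 sets of member values in the input groups, 2 held a library far from the rest of its group. Chance meets the rule in about 1 in 20 groups when values are normally distributed and not tied. These CPM were skewed, with many values at or near 0, so that rate need not hold here. Csrp1 stood at 180.4 CPM in replicate 2 of the C10 1-cell input, and the next highest of the 8 libraries was at 29.4 CPM. Csrp2 stood at 113.1 CPM in replicate 10 of the C10 1-cell input, and the other 7 libraries were at 0, so that any library with counts would have stood out.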

How the results depend on the processing

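Between the lines, no alternative changed which line was higher for Crip2, Csrp1 or Csrp2. Crip1 had no SVEC count, so no alternative could have changed its order. With the mean of the libraries' CPM, the C10 over SVEC fold was 3.30 for Csrp1 and 0.1125 for Csrp2; for Crip1, at 0 in SVEC, that scale gave no fold. Libraries with at least 100000 counts gave 11410 for Crip1. Leaving mitochondrial genes out of the totals gave 11934 for Crip1 and 0.3016 for Crip2. Leaving out 1 library at a time, a choice made after seeing the data, gave 1.41 to 4.69 for Csrp1 and 0.1955 to 0.3053 for Csrp2. Requiring counts in 50% of a line's libraries left 542 genes past 4-fold. For C10 single cells over the 1-cell input, the mean of CPM gave 8.01 for Crip1, 2.80 for Crip2 and 0.3872 for Csrp1, centring on the median gene gave 5.83 for Crip1, and leaving out mitochondrial genes gave 5.83. Leaving out 1 library at a time gave 2.02 to 5.72 for Crip2 and 0.2304 to 1.18 for Csrp1, which changed direction without 1-cell input replicate 2.

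In the input series no member was called under any alternative that used all the libraries, but signs moved. From 1 to 10 cells, Crip1 was -0.14 with DESeq2's size factors in edgeR (-0.1395) and in DESeq2's own test (-0.14). The medians over all genes were -0.501 and -0.151 in these 2 settings. With limma, Crip2 was at 1.39, Csrp1 at 1.77 and Csrp2 at 1.31, beside a median of 1.45 over all genes. The limma signs thus went with a shift of the whole scale. From 1 to 3 cells, Crip1 was -0.3521 with the size factors and -0.3526 in DESeq2, Crip2 was -0.131 with library totals, -0.0877 with the size factors and -0.0861 in DESeq2, and limma gave 0.66 for Csrp2. Leaving out 1 library at a time gave -1.15 to 1.24 for Csrp1, -1.29 to 0.31 for Crip2 and -0.90 to 9.63 for Csrp2 from 1 to 10 cells, and -0.67 to 1.30 for Crip2 and -2.27 to 8.58 for Csrp2 from 1 to 3 cells. The cause was not tested.

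Counts of genes called, 1456 from 1 to 10 cells and 866 from 1 to 3 cells, were 455 and 197 with the size factors, 48 and 65 with no filter, and 412 and 281 with counts in 90% of a group's libraries. From 1 to 3 cells limma called 121, and DESeq2 called 991 higher and 269 lower. Between 3 and 10 cells DESeq2 called 258 and limma 35. Leaving out 1 library gave 336 to 2769 and 32 to 2035.

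Libraries share replicate numbers across the input groups, but same-numbered libraries did not deviate together (mean r of -0.00331, 0.0218 and 0.0163 over 6 pairs). The replicate block was fitted on the 6 shared numbers only, so 1-cell input replicates 13 and 14 were left out. In that fit, 0 genes were called in either comparison with 1 cell (3020 and 1595 at an unadjusted p under 0.05). The block and the loss of these libraries cannot be told apart there. The blocked values from 1 to 10 cells were 3.01 for Crip2, 0.68 for Csrp1 and 7.05 for Csrp2, from 1 to 3 cells 4.86 for Csrp2, and from 3 to 10 cells 2.12 for Crip2. The lower depth of SVEC limits what a 0 there can show.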
